A study of Homo sapiens with 7 samples.

Results

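The genes described here encode the subunits of RNA polymerase I, II and III, in 2 human T-cell acute lymphoblastic leukaemia cell lines whose level of STAG2 had been changed. STAG2 is a subunit of cohesin, the ring complex that holds sister chromatids together and forms chromatin loops. Members were all protein-coding genes with a symbol beginning POLR1, POLR2 or POLR3 followed by a letter, which gave 31 of the 60662 genes. By name, 5 belong to polymerase I, 16 to polymerase II and 10 to polymerase III, and POLR2J3 has 2 gene identifiers that were kept apart. The question was how many of them differed in each STAG2 comparison and between the lines.

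PF-382 was sequenced as untreated wild type (n = 2 libraries) and after STAG2 knockout by delivery of Cas9 with guide RNA as a ribonucleoprotein (n = 3). MOLT-14 was sequenced after transduction with an empty vector (n = 1) and after transduction with STAG2 (n = 1). All cells were grown in RPMI medium with fetal bovine serum, and total RNA was used. The labels do not say whether the libraries within a group are separate cultures or clones of the edited cells. Sample titles carry a code that begins with SA for both wild-type libraries and knockout library 1 and with SB for knockout libraries 2 and 3, with no meaning given, and its part in the results was not tested. The p-values therefore measure the spread between these libraries, which may be technical.

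RNA polymerase I transcribes the large ribosomal RNA precursor, polymerase II transcribes messenger RNAs and many non-coding RNAs, and polymerase III transcribes transfer RNAs, 5S ribosomal RNA and other small RNAs. Each enzyme has its own pair of catalytic subunits, which form the active site. A core of small subunits is common to all of them, and POLR1C and POLR1D are common to polymerase I and III. The remaining subunits form stalks, or modules that resemble the general factors TFIIF, TFIIE and TFIIS. Growing cells, leukaemia cells among them, need a high output from polymerase I and III to make ribosomes and transfer RNAs.

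Library depth was 32609485 and 33145516 counts in wild type, 65262329 to 93970572 in the knockout, 38678382 with empty vector and 45013453 with STAG2. All 3 knockout libraries were deeper than both wild-type libraries. Small RNAs took 21.0% and 14.9% of the counts in wild type, and 12%, 14% and 13.7% in the knockout. The part of depth and of the small RNA share in the results was not tested. STAG2 itself stood at 315 and 537 CPM (counts scaled to the same library total) in wild type and at 239, 166 and 181 CPM in the knockout (log2 change -1.13, edgeR quasi-likelihood test with Benjamini-Hochberg adjustment, adjusted p = 0.0218), so the transcript was lower and still present. In MOLT-14 it had 56 counts with empty vector and 6878 with STAG2. The T-cell genes CD3D (538 and 376 CPM as means of wild type and knockout) and LCK (1120 and 1070) were present, and CD2 was near absent (1.11 and 0.827). Of 8 T-lineage markers 1, CD5, was called lower in the knockout (98.3 ± 10.0 (SD, n = 2) CPM in wild type and 50.7 ± 3.09 (SD, n = 3) in the knockout). The pan-leukocyte marker PTPRC varied widely within wild type (85.8 ± 77.1 CPM, SD, n = 2). Of 12 markers of other lineages only 3 had counts enough for the test. The B-cell gene CD79A was the highest, at 35.2 and 6.57 CPM in wild type and 3.57, 5.63 and 17.8 in the knockout, and was not called. KRT8 was lower in the knockout (3.31 and 0.143 CPM as group means), while MS4A1, HBB and PPBP had no count in any PF-382 library.

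In PF-382 the STAG2 knockout libraries had more transcript of most subunits. Of the 31 members, all of which passed the low-count filter, 18 were higher, 1 was lower and 12 were not called at an adjusted p of 0.05. Among all 17442 genes tested, 15.8% were called higher and 14.6% lower, and among protein-coding genes 19.9% and 12.4%. The median log2 change of the members was 0.59, against -0.02 over all genes and 0.09 over protein-coding genes. In bulk RNA, fewer cells with a transcript and less of it per cell cannot be told apart. All knockout libraries lay above both wild-type libraries for 24 members, below both for 4, and overlapped them for 3, whereas 30.4% of all genes tested had every knockout library above. Of the 17442 genes tested, 5131 had every knockout library below and 7017 overlapped. Member reads made up 0.133% and 0.130% of the counts in wild type and 0.191%, 0.182% and 0.180% in the knockout.

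**Figure D1:**
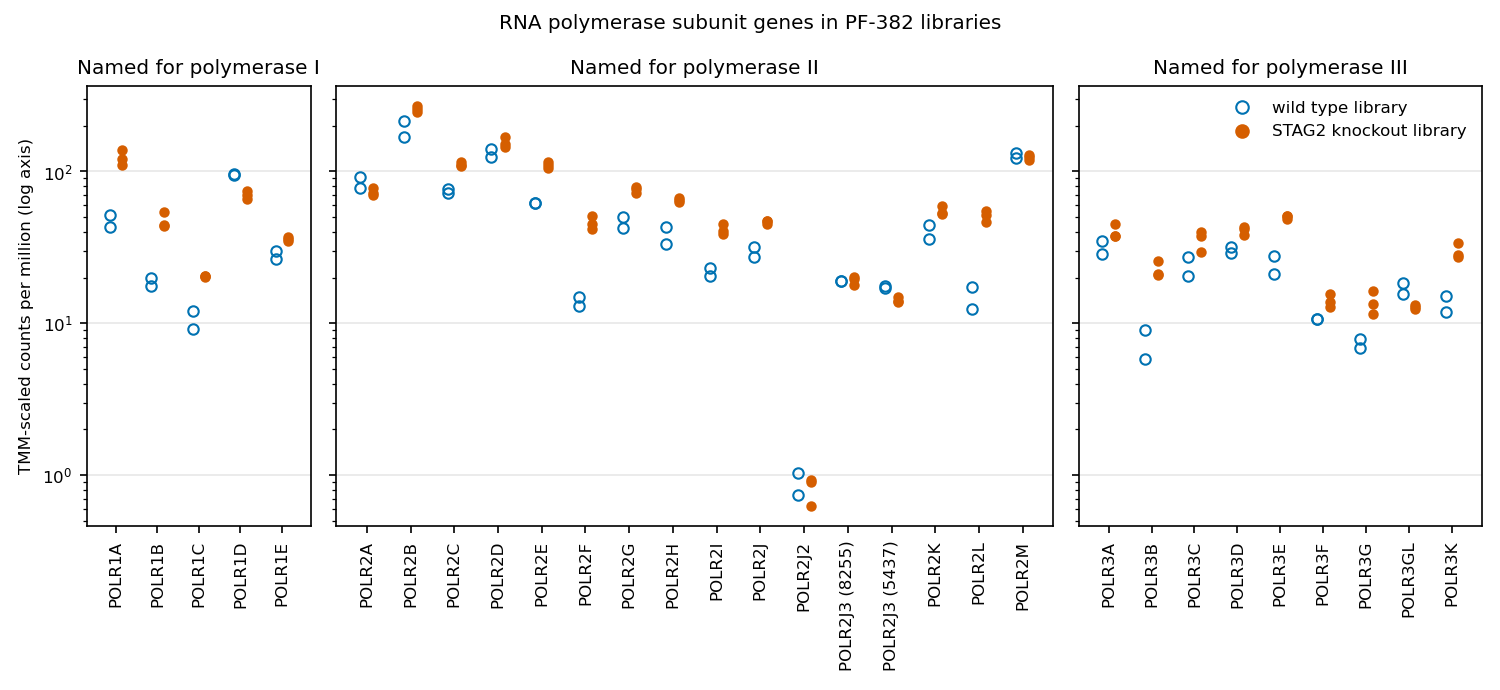
Level of the members in every PF-382 library, in TMM-scaled CPM on a log axis, for genes named for polymerase I, II and III. Open circles are the 2 wild-type and filled circles the 3 knockout libraries, and for most members the filled circles all lie above the open ones. POLR2J2 is the lowest, and the 2 POLR2J3 identifiers are told apart by 4 digits of their IDs.

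By name, 3 of 5 polymerase I genes were higher and 1 lower, 9 of 16 polymerase II genes were higher and 0 lower, and 6 of 10 polymerase III genes were higher and 0 lower. Counting each subunit under every enzyme that uses it, 8 of 10 used by polymerase I, 9 of 16 used by polymerase II and 12 of 17 used by polymerase III were higher. Members can also be grouped by use alone. All 5 subunits common to the 3 enzymes were higher (median log2 change 0.84), as were 2 of the 3 used by polymerase I alone (1.34) and 6 of the 10 used by polymerase III alone (0.73). Of the 11 used by polymerase II alone, 4 were higher, with a median of 0.22. The 11 include the associated factor POLR2M, the POLR2J copy POLR2J2 and both POLR2J3 identifiers, all with fractional counts. Their log2 changes were -0.04, -0.11, 0.01 and -0.29, none called, and they lower that share and median. The counts by enzyme cover the members only. TWISTNB, CD3EAP, ZNRD1 and CRCP, subunits held under other symbols, are outside them and are given with the lists below. The counts are set side by side, and no test compared the enzymes.

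When each library was left out in turn, the number of members called higher ranged from 12 to 20 and 12 of the 18 kept the call throughout, among them POLR1A, POLR1B and POLR1C of polymerase I, the shared POLR2E, POLR2F and POLR2L, and POLR3B, POLR3E and POLR3K of polymerase III. The lowest counts, 13 and 12, came without knockout library 2 and without knockout library 3, when 7.48% and 7.19% of all genes were called higher.

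The catalytic pair of polymerase I changed most among the genes named for that enzyme. POLR1A, its largest subunit (chr2:86020216-86106155 on the minus strand, GRCh38), had 51.6 and 43.1 CPM in wild type and 138, 121 and 110 in the knockout. The groups did not overlap, and the log2 change was 1.38 (SE 0.15, adjusted p = 0.0033). POLR1B, the second-largest subunit (chr2:112541915-112577150, plus strand), had 19.8 and 17.6 CPM in wild type and 53.8, 44.0 and 44.1 in the knockout, a log2 change of 1.34 (SE 0.15, adjusted p = 0.00345). The pair moved by nearly the same factor: POLR1B had 38.5 and 40.9 reads per 100 POLR1A reads in wild type and 39.1, 36.3 and 40.1 in the knockout, and these ranges overlapped. POLR1E, which forms the TFIIF-like module of polymerase I with CD3EAP, was at 28.4 ± 2.36 (SD, n = 2) and 35.9 ± 1.24 CPM (SD, n = 3), and was not called (adjusted p = 0.0709). It was called higher by DESeq2 (adjusted p = 0.0297) and without wild-type library 2 (0.0265).

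The partners POLR1C and POLR1D, which form the assembly platform of both polymerase I and polymerase III, went in opposite directions. POLR1C (chr6:43509702-43562419, plus strand) had 12.1 and 9.14 CPM in wild type and 20.6, 20.1 and 20.5 in the knockout (log2 change 0.94, SE 0.16, adjusted p = 0.00956). POLR1D (chr13:27620742-27744237, plus strand) had 95.8 and 95.5 CPM in wild type and 74.7, 70.1 and 65.6 in the knockout. It was the only member called lower (log2 change -0.45, SE 0.11, adjusted p = 0.0246). That call did not hold without knockout library 1 (adjusted p = 0.0589), library 2 (0.0932) or library 3 (0.0938). Without the low-count filter it was at 0.0677, and limma on TPM gave 0.391, with the log2 change below 0 in each case. POLR1C had 12.6 and 9.58 reads per 100 POLR1D reads in wild type and 27.5, 28.6 and 31.2 in the knockout.

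Of the 5 subunits common to all 3 enzymes, POLR2L and POLR2F rose most, and they were the largest changes of all members. POLR2L (chr11:837356-842545, minus strand), a small zinc-binding subunit, had 17.2 and 12.5 CPM in wild type and 46.3, 54.6 and 51.5 in the knockout (log2 change 1.77, SE 0.18, adjusted p = 0.00292). POLR2F (chr22:37952607-38041915, plus strand) had 14.8 and 12.9 CPM in wild type and 50.9, 41.9 and 45.2 in the knockout (log2 change 1.73, SE 0.15, adjusted p = 0.00233). Both were over 3-fold higher on average, 3.42-fold for POLR2L and 3.32-fold for POLR2F, and every knockout library was above both wild-type ones.

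The other shared subunits changed less. POLR2E (chr19:1086579-1095380, minus strand) had 62.1 and 61.6 CPM in wild type and 110, 116 and 106 in the knockout (log2 change 0.84, adjusted p = 0.0045). POLR2H (chr3:184361718-184368596, plus strand) had 42.9 and 33.5 CPM in wild type and 63.1, 64.9 and 66.6 in the knockout (log2 change 0.76, adjusted p = 0.0108; 0.0531 without knockout library 3). POLR2K, the other small zinc-binding shared subunit, had 35.9 and 44.2 CPM in wild type and 52.6, 53.3 and 59.3 in the knockout. Its log2 change of 0.46 was just inside the threshold (adjusted p = 0.0459), and the call was lost without wild-type library 1 (0.0828) or without any knockout library (0.102 to 0.157), and with upper-quartile scaling (0.121), RLE size factors (0.0524), a fit of protein-coding genes alone (0.0747) or limma on TPM (0.0955).

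Subunits found in equal copy in the same enzymes thus did not keep a fixed ratio of reads. POLR2L had 47.9 and 28.3 reads per 100 POLR2K reads in wild type and 88.1, 102 and 86.9 in the knockout. POLR2F had 41.2 and 29.2 per 100 POLR2K reads in wild type and 96.9, 78.6 and 76.3 in the knockout. These ratios are taken within a library and do not depend on its scaling or depth.

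The promoter of POLR2L, the member with the largest rise, and that of POLR1D, the only member called lower, are shown to set their letters side by side. Each runs from 250 bases before to 30 bases after a RefSeq transcription start (GRCh38.p14), POLR2L at chr11:842500-842779 on the minus strand and POLR1D at chr13:27620493-27620772 on the plus strand, the first of 2 starts listed for it. Capitals mark a match to ATGGCGG, a core of the YY1 motif, here on the opposite strand. It lies within the 30 bases after the start, and its last letters with the next one read ATG, the letters of a start codon.
POLR2L: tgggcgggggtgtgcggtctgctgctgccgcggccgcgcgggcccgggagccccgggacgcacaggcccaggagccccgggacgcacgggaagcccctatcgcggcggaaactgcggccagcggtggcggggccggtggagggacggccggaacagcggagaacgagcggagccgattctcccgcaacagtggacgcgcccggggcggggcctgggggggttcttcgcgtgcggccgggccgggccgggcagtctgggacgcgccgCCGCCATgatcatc
POLR1D: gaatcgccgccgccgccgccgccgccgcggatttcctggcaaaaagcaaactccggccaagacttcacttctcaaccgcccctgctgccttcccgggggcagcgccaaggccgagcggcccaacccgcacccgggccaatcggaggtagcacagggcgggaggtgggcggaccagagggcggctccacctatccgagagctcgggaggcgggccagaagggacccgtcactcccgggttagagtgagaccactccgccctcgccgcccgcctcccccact
POLR1D holds none of the 4 motifs searched.

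The motifs were chosen with the results known and searched on both strands in windows of 300 bases, 250 before and 50 after each start. A gene counts once if any of its listed starts has a match, among the 21 members and the 27305 genes of the RefSeq table. Of the 21 members, 11 were called higher. None contains another. ATGGCGG was found in 3 of the 21 (14.3%, against 6.66% of all genes), POLR1C, POLR2H and POLR2L, which were each called higher. GCATGCGC, a core of the NRF1 motif, was found in 4 (19.0%, against 3.68%), POLR2F, POLR2H, POLR2J2 and POLR3B, of which 3 were called higher. The E-box CACGTG, to which MYC and USF factors bind, was found in 3 (14.3%, against 8.77%), POLR3A, POLR3C and POLR3E, of which only POLR3E was called. TATAAA was found in 1, POLR2M (4.76%, against 14%). A match describes these letters and is not a binding site.

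The catalytic pair of polymerase II was not called in either direction. POLR2A, the largest subunit, which carries the repeated C-terminal domain (chr17:7484366-7514616, plus strand), had 78.4 and 91.4 CPM in wild type and 70.3, 71.9 and 77.4 in the knockout, with all knockout libraries below both wild-type ones (log2 change -0.21, SE 0.12, adjusted p = 0.207). Upper-quartile scaling, which moved the median of all genes from -0.02 to -0.18, called it lower (-0.38, adjusted p = 0.0434). POLR2B (chr4:56977722-57031168, plus strand) had 169 and 214 CPM in wild type and 258, 248 and 270 in the knockout (log2 change 0.44, SE 0.14, adjusted p = 0.0606). It was called higher without wild-type library 2 (0.64, adjusted p = 0.00881), by DESeq2 (0.47, adjusted p = 0.0161) and without the low-count filter (0.51, adjusted p = 0.0351).

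Of the members used by polymerase II alone, 4 were higher. POLR2I, a TFIIS-like zinc subunit (chr19:36113710-36115346, minus strand), had 23.1 and 20.4 CPM in wild type and 39.0, 45.4 and 40.4 in the knockout (log2 change 0.93, SE 0.13, adjusted p = 0.00591). POLR2G of the stalk rose by 0.71 on the log2 scale, and POLR2C and POLR2J, which together fill the place that POLR1C and POLR1D take in the other enzymes, by 0.59 and 0.65. POLR2C and POLR2J lost the call without knockout library 2 (adjusted p = 0.0515 and 0.0546) or library 3 (0.0555 and 0.056). POLR2D, the partner of POLR2G in the stalk, was at 133 ± 10.9 (SD, n = 2) and 155 ± 11.4 CPM (SD, n = 3) and was not called (adjusted p = 0.219). POLR2M, a polymerase II-associated protein known as Gdown1, was at 127 ± 7.92 and 124 ± 4.62 CPM. The POLR2J copies POLR2J2 (log2 change -0.11) and POLR2J3 (0.01 and -0.29 for the 2 identifiers) were not called. They are near-identical to POLR2J, and all 4 had fractional counts, so reads could be split among them and these values are uncertain.

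In the catalytic pair of polymerase III the smaller subunit was higher and the larger did not pass the test. POLR3A, the largest subunit (chr10:77969251-78029545, minus strand), had 28.5 and 34.9 CPM in wild type and 44.8, 37.6 and 37.7 in the knockout (log2 change 0.34, SE 0.15, adjusted p = 0.13; 0.51 and 0.0386 without wild-type library 2). POLR3B, the second-largest (chr12:106357658-106510198, plus strand), had 9.07 and 5.77 CPM in wild type and 25.7, 21.1 and 20.7 in the knockout (log2 change 1.6, SE 0.23, adjusted p = 0.00619). POLR3B therefore had 31.8 and 16.5 reads per 100 POLR3A reads in wild type and 57.4, 56.1 and 55 in the knockout.

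Among the stalk and module subunits of polymerase III, 5 of 8 were higher. POLR3E, of the TFIIF-like pair with POLR3D (chr16:22297375-22335103, plus strand), had 27.7 and 21.0 CPM in wild type and 51.0, 48.3 and 50.8 in the knockout (log2 change 1.04, SE 0.15, adjusted p = 0.00613). POLR3K, the TFIIS-like subunit (chr16:46407-53628, minus strand), had 11.8 and 15.1 CPM in wild type and 33.6, 27.5 and 28.2 in the knockout (log2 change 1.15, SE 0.17, adjusted p = 0.00626). POLR3D, the partner of POLR3E, was higher by 0.42 (adjusted p = 0.0408). Its call was lost without knockout library 1 (adjusted p = 0.118), 2 (0.148) or 3 (0.0956), without wild-type library 2 (0.0545), and with upper-quartile scaling (0.16), protein-coding genes alone (0.0798) or limma on TPM (0.0571).

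The trimer that opens DNA at initiation consists of POLR3C, POLR3F and either POLR3G or its paralogue POLR3GL, POLR3G being known as the form of undifferentiated and cancer cells. POLR3G (chr5:90471748-90514553, plus strand) had 7.83 and 6.87 CPM in wild type and 11.5, 13.3 and 16.3 in the knockout (log2 change 0.90, SE 0.21, adjusted p = 0.0216; 0.0708 without knockout library 2 and 0.0836 without library 3). POLR3GL (chr1:145964702-145978848, plus strand) had 18.3 and 15.5 CPM in wild type and 13.1, 12.7 and 12.4 in the knockout (log2 change -0.41, SE 0.14, adjusted p = 0.0725), below wild type in every library and not called. It was called lower with upper-quartile scaling (-0.58, adjusted p = 0.0319), with protein-coding genes alone (-0.50, adjusted p = 0.0438) and without wild-type library 2 (-0.50, adjusted p = 0.0388). The balance of the pair is free of scaling: POLR3G had 42.8 and 44.4 reads per 100 POLR3GL reads in wild type and 88.3, 105 and 131 in the knockout. POLR3C (log2 change 0.57, adjusted p = 0.0655) and POLR3F (0.40, adjusted p = 0.099) were not called. POLR3C was called higher by DESeq2 (adjusted p = 0.0218), by limma on TPM (0.0447), without the low-count filter (0.0296) and without wild-type library 1 (0.0221).

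**Figure D2:**
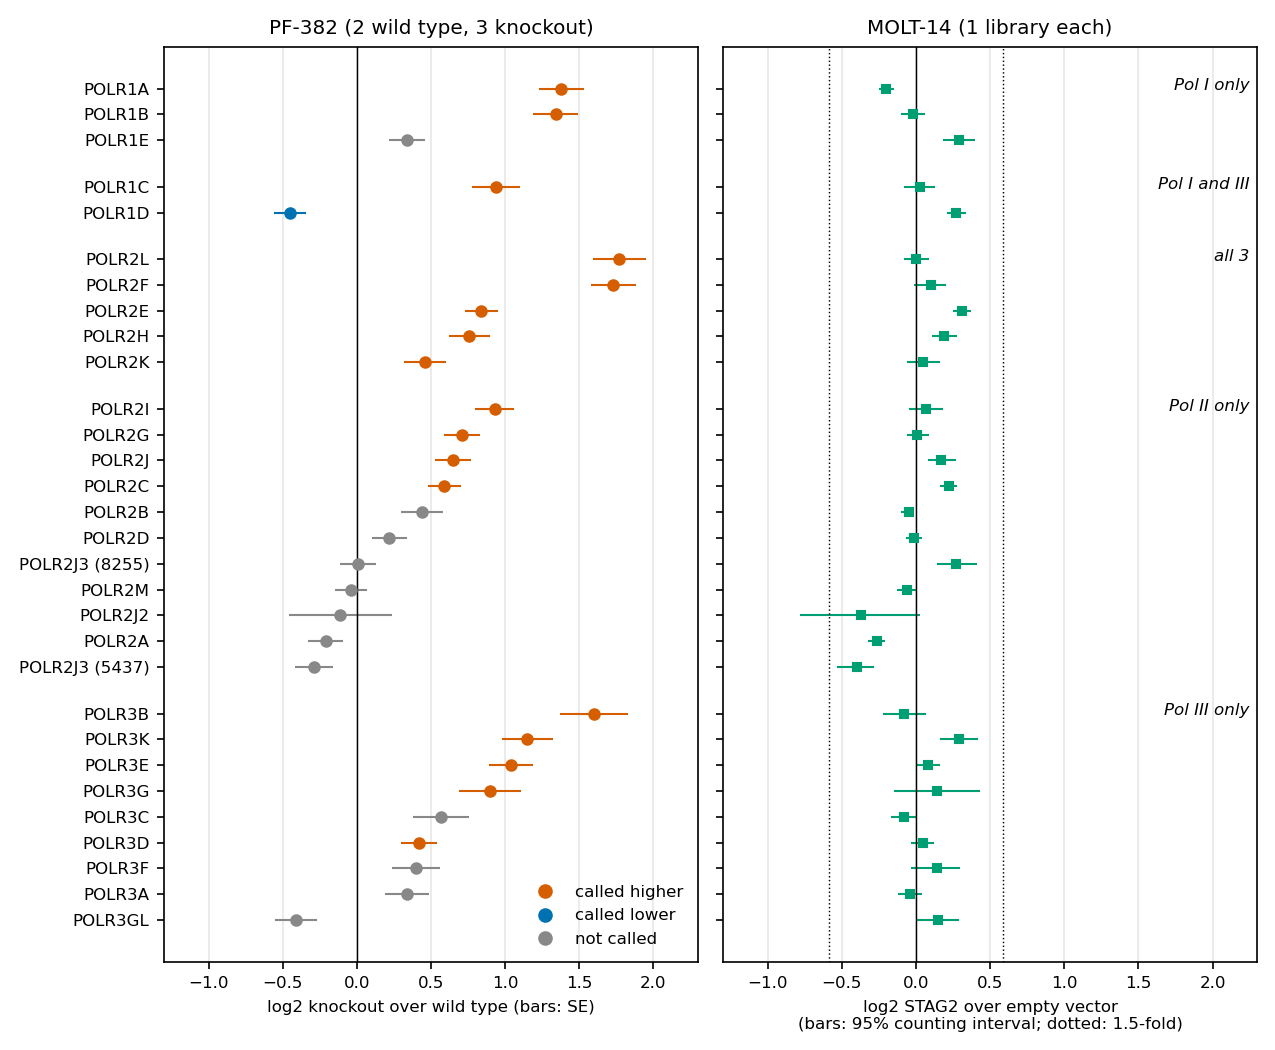
Log2 change of the members, grouped by the polymerase that uses the subunit. Left, PF-382 knockout over wild type with its standard error, coloured by call. Right, MOLT-14 STAG2 over empty vector with the 95% counting interval, dotted lines at 1.5-fold. The PF-382 changes run from -0.45 to 1.77, and no MOLT-14 value passes a dotted line.

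Across enzymes, the balance of catalytic subunits differed between the PF-382 groups. POLR1A had 65.8 and 47.2 reads per 100 POLR2A reads in wild type and 196, 169 and 142 in the knockout. POLR3A had 36.4 and 38.2 per 100 POLR2A reads in wild type and 63.7, 52.4 and 48.7 in the knockout, again without overlap. The share of all member reads that fell on genes named for polymerase III was 15.6% and 13.2% in wild type and 17.2%, 16.8% and 16.8% in the knockout. The share for polymerase I overlapped (16.1% and 14.8%, against 17%, 16% and 14.9%). POLR1D, with the most reads of those 5 genes in wild type, fell while POLR1A and POLR1B rose.

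**Figure D3:**
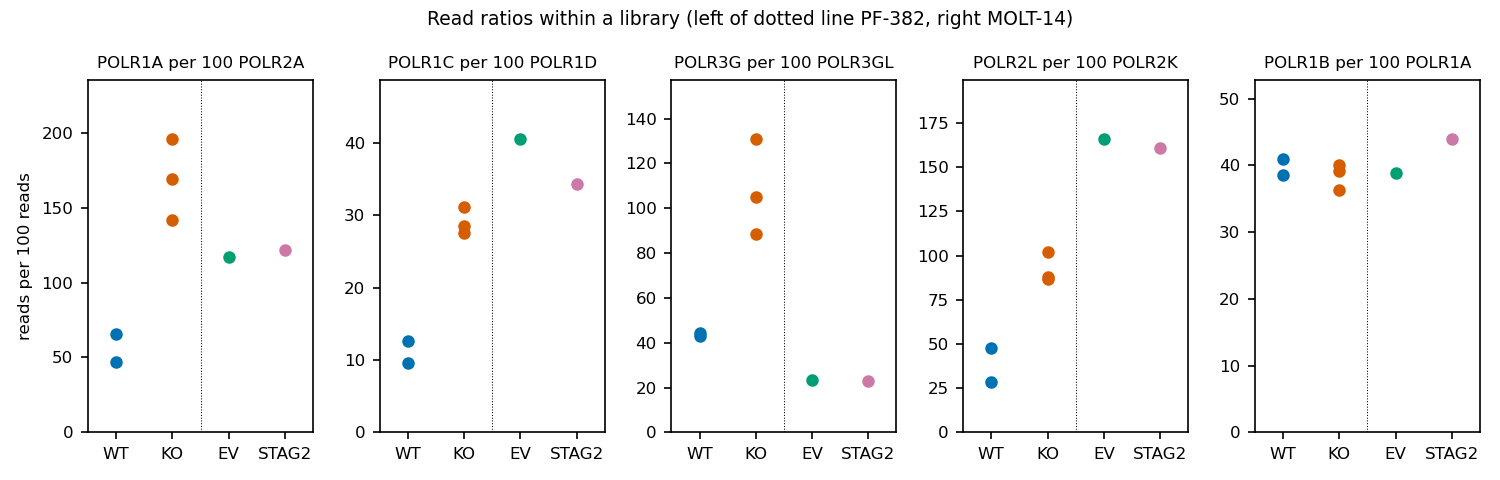
Reads of a subunit gene per 100 reads of another in the same library, 1 point per library, from 0 on each axis. POLR1A to POLR2A, POLR1C to POLR1D, POLR3G to POLR3GL and POLR2L to POLR2K were higher in all 3 knockout libraries than in both wild-type ones, and POLR1B to POLR1A overlapped.

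The order of the members by TPM, which divides by transcript length and was used only within a library, shifted as well. POLR1D ranked first of the 31 in both wild-type libraries and in places 7, 7 and 9 in the knockout libraries. POLR2I, in places 5 and 6 in wild type, ranked in places 2, 1 and 1. POLR2F moved from ranks 12 and 13 to ranks 3, 5 and 5, and POLR2L from 15 and 15 to 11, 9 and 10. POLR3GL went from 16 and 18 to 26, 26 and 25. POLR2J2 was last in every library.

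Factors that work with the polymerases were counted from lists, chosen like the members with earlier results known. Their counts are to be read against the 15.8% of all genes and 19.9% of protein-coding genes called higher. Of 4 polymerase I and III subunits that the files hold under other symbols, 3 were higher and 0 lower: CD3EAP (log2 change 1.54, adjusted p = 0.00333), TWISTNB (0.63, adjusted p = 0.0129), both of polymerase I, and CRCP of the polymerase III stalk (0.42, adjusted p = 0.0275). ZNRD1 was not called. Of 16 polymerase III initiation factors and repressors, 5 were higher and 0 lower, led by the TFIIIC subunit GTF3C6 (1.21, adjusted p = 0.00293), the 5S gene factor GTF3A (1.14, adjusted p = 0.00378) and SNAPC2 (0.83, adjusted p = 0.015). Of 8 polymerase I initiation and termination factors only UBTF, which binds along ribosomal DNA, was higher (0.65, adjusted p = 0.0139), which is 12.5% of the list and under both background shares, and 0 were lower.

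Of 18 polymerase II general factors, 7 were higher and 0 lower, with GTF2F2 (0.63, adjusted p = 0.00934), GTF2H1 (0.61, adjusted p = 0.0112) and ERCC3 (0.58, adjusted p = 0.0129) first. Of 19 pausing and elongation factors, 3 were higher and 0 lower: NELFE (0.62), SUPT4H1 (0.43) and LEO1 (0.47), the same 15.8% as over all genes. Of 12 proteins that assemble and import polymerases, 5 were higher and 0 lower, among them RUVBL1 (0.95, adjusted p = 0.00475), RPAP1 (0.69, adjusted p = 0.0087) and RUVBL2 (0.85, adjusted p = 0.0112). Of 5 mitochondrial transcription genes TFB2M (1.37, adjusted p = 0.00551) and TFAM (0.72, adjusted p = 0.0066) were higher and 0 lower. The list medians were 0.16 for polymerase I factors, 0.26 for polymerase III factors, 0.36 for general factors, 0.23 for elongation, 0.21 for assembly and 0.45 for mitochondrial genes, each under the 0.59 of the members.

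**Figure D4:**
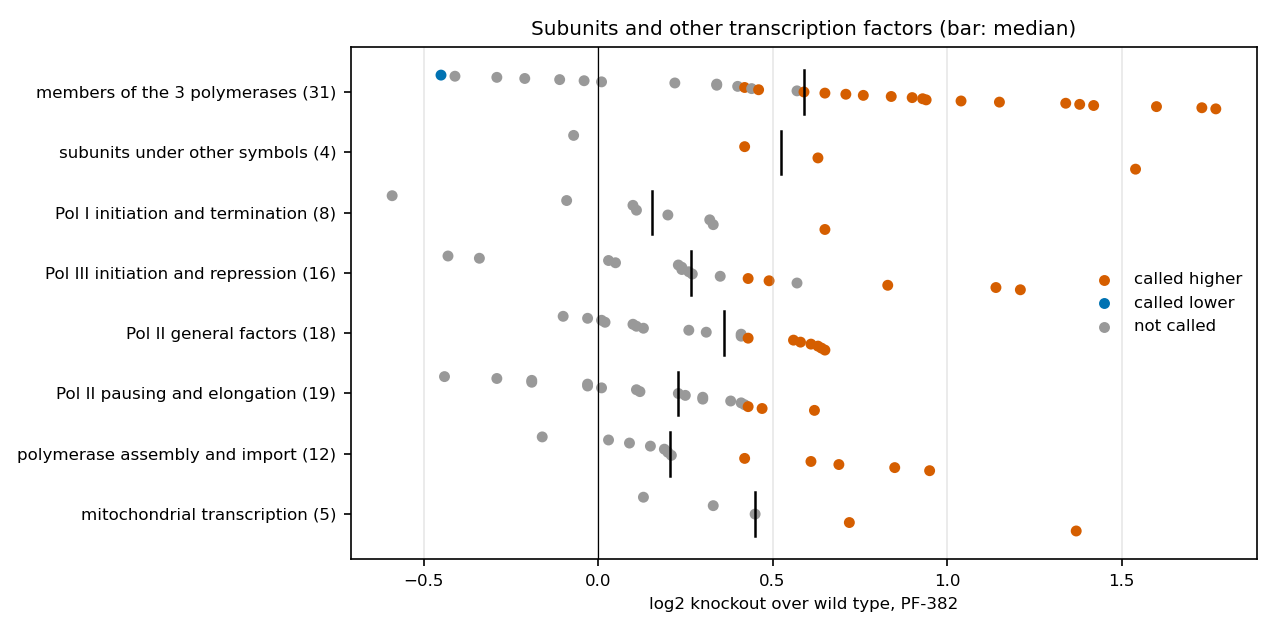
Log2 knockout over wild type in PF-382 for the 31 members and 7 lists of related genes (number of genes in brackets), 1 point per gene coloured by call, with a bar at the median. The members' median of 0.59 is the largest shown, and POLR1D is the only gene in the plot called lower.

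In MOLT-14, adding STAG2 left the members close to their level with empty vector. Of the 29 members with at least 5 CPM in either library, 0 differed by 1.5-fold in either direction, where 7.44% of 11442 genes did. POLR2J2 and POLR3G were under that level. The log2 ratios ran from -0.40 to 0.31 with a median of 0.05, the same as over all genes, and 18 of the 29 were above 0. Scaling by total counts moved both medians to -0.15. With 1 library per group this difference has no replicate check, and intervals (95%, exact binomial) cover counting error only.

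The highest ratio belonged to POLR2E, with 104 CPM (4290 counts) with empty vector and 128 CPM (5397 counts) with STAG2, a log2 ratio of 0.31 (interval 0.25 to 0.37). POLR1D followed PF-382 in sign, in that it was higher where STAG2 was higher: 83.5 CPM with empty vector and 101 with STAG2 (0.27, interval 0.21 to 0.34). By total counts its ratio was 0.08. POLR1A also followed in sign, lower where STAG2 was higher, at 152 and 132 CPM (-0.20, interval -0.25 to -0.15). POLR2A, at 130 and 108 CPM (-0.26, interval -0.32 to -0.21), did not, nor did POLR2E. These largest subunits had like ratios, and POLR1A stood at 117 and 122 reads per 100 POLR2A reads. The lowest ratio, -0.40 (interval -0.53 to -0.28), was of the POLR2J3 identifier ENSG00000285437.1, which shares reads with its copies.

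Of the members with a large rise in PF-382, some had a MOLT-14 interval that includes 0 on the TMM scale. POLR1A, above, and POLR3K, at 20.1 and 24.6 CPM (0.29, interval 0.16 to 0.42), did not. POLR2L was at 55.5 and 55.6 CPM (log2 ratio 0, interval -0.08 to 0.09), POLR1B at 59.0 and 58.2 CPM (-0.02, interval -0.10 to 0.06) and POLR2F at 32.5 and 34.7 CPM (0.10, interval -0.01 to 0.20). POLR3B was at 19.8 and 18.8 CPM (-0.08, interval -0.22 to 0.07). This sorting by interval depends on the scaling. By total counts the log2 ratios were -0.19 for POLR2L, -0.22 for POLR1B, -0.27 for POLR3B and 0.09 for POLR3K. POLR3G had 188 and 210 counts and POLR3GL 809 and 914, so the POLR3G reads per 100 POLR3GL reads were 23.2 and 23.0. Among the lists, only the elongation factor PAF1 passed 1.5-fold (0.67).

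The effect of losing STAG2 in PF-382 was compared with that of lacking the transgene in MOLT-14 (empty vector over STAG2) in a fit of all 7 libraries. For 1 member, POLR2F, the difference was called (1.84 on the log2 scale, adjusted p = 0.048), where 0.607% of 20100 genes were called. At an unadjusted p of 0.05, 18 of the 31 members and 4271 of the 20100 genes passed. POLR2L (1.79, adjusted p = 0.0586) and POLR2E (1.16, adjusted p = 0.0586) came next. The median difference of the members was 0.74, and it was -0.05 over all genes. The spread comes from PF-382 alone and is assumed for the single MOLT-14 libraries. The count rested on single libraries: without wild-type library 1 it was 14 and without wild-type library 2 it was 12, all higher, when 7.84% and 6.97% of all genes were called higher. Without any knockout library it was 0, as it was for all genes. POLR2F lost its call without knockout library 1 (adjusted p = 0.169), 2 (0.204) or 3 (0.201), with RLE size factors (0.0521) and with upper-quartile scaling (0.0663).

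Between the lines, the mean of the 2 MOLT-14 libraries, empty vector and STAG2, was set against PF-382 wild type. MOLT-14 had more transcript of 13 members than PF-382 wild type and less of 4, and 14 were not called, where 22.2% of genes were higher and 23.8% lower. With the empty-vector library alone 10 were higher and 3 lower, and 10 to 14 were higher when a library was left out. By name, polymerase I had 3 higher and 1 lower, polymerase II 4 and 2, and polymerase III 6 and 1. The median log2 difference was 0.15 for polymerase II and 0.65 for polymerase III, against 0.04 over all genes, and the middle member of polymerase I, POLR1A, was 2.38-fold higher. The values below come from the scaling of all 7 libraries, so they differ from the CPM given above. This comparison shares the wild-type libraries with the knockout comparison, and values are set side by side on that footing.

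POLR1A was at 50.2 CPM on average in PF-382 wild type, 133 in the knockout, and 129 and 111 in MOLT-14 with empty vector and STAG2 (2.38-fold over wild type, SE 0.16 on the log2 scale, adjusted p = 0.00167). POLR1B was at 19.8, 51.0, 50.1 and 48.8 CPM in the same order (log2 difference 1.32, adjusted p = 0.00138). POLR1C was at 11.2, 22.0, 28.8 and 29 CPM (1.36, adjusted p = 0.0019). For these 3 genes both MOLT-14 libraries and the knockout stood at more than wild type. POLR1D was at 101, 75.7, 70.9 and 84.5 CPM (-0.39, adjusted p = 0.0351), a call that was lost without the empty-vector library (0.219) and without any knockout library (0.0667 to 0.0896).

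Among the shared subunits POLR2L was at 15.7 CPM in wild type, 54.8 in the knockout, and 47.1 and 46.6 in MOLT-14 (1.57, adjusted p = 0.00143). POLR2F was at 14.6, 49.6, 27.6 and 29.1 CPM (0.95, adjusted p = 0.00415), with MOLT-14 between the PF-382 groups. When both groups of each line were compared, the POLR2F call was lost (log2 difference 0.07). Among the polymerase III genes, so were those of POLR3B (log2 difference 0.23) and POLR3C (log2 difference 0.38), among others. POLR2E was higher by 0.57 (adjusted p = 0.00853), a call lost without the STAG2 library (0.43, adjusted p = 0.0508) and when both groups of each line were compared (0.14, adjusted p = 0.256). POLR2H was not called. POLR2K was at 42.4, 59.4, 28.3 and 28.9 CPM (-0.57, adjusted p = 0.0225), lower in MOLT-14 while higher in the knockout. It lost the call without the empty-vector library (0.0649), the STAG2 library (0.0501) or knockout library 2 (0.0542). MOLT-14 thus had 166 and 161 POLR2L reads per 100 POLR2K reads, above every PF-382 library.

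Of the members used by polymerase II alone, POLR2J2 was higher in MOLT-14 (1.19, adjusted p = 0.042) and POLR2M was lower (-0.90, adjusted p = 0.00194, at 135 CPM in wild type and 74.5 and 70.4 in MOLT-14), and 9 were not called, POLR2A and POLR2B among them (0.15 and -0.29). The POLR2J2 call rests on about 1 CPM in wild type and was lost without wild-type library 2 (adjusted p = 0.11), either MOLT-14 library (0.124 and 0.0503) or any knockout library (0.0555 to 0.0796). POLR2M kept its call whichever library was left out.

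Both catalytic subunits of polymerase III and 4 of its 8 other members were higher in MOLT-14. POLR3A was at 33.6 CPM in wild type, 43.2 in the knockout, and 52.9 and 50.7 in MOLT-14 (0.62, adjusted p = 0.0199; 0.0531 without the empty-vector library), and POLR3B at 7.86, 24.3, 16.8 and 15.7 CPM (1.05, adjusted p = 0.016). POLR3E (1.07), POLR3D (0.75) and POLR3C (0.68) were also higher, the last with a call lost without wild-type library 2 (adjusted p = 0.0976), either MOLT-14 library (0.0894 and 0.0625), or knockout library 2 (0.0699) or 3 (0.064). POLR3G went the other way, at 7.78 CPM in wild type, 14.8 in the knockout, and 3.85 and 4.18 in MOLT-14 (-0.96, SE 0.24, adjusted p = 0.0183; 0.0548 without the empty-vector library). POLR3GL was at 17.9, 13.7, 16.6 and 18.2 CPM and was not called, so the POLR3G to POLR3GL ratio was lowest in MOLT-14 and highest in the knockout.

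**Figure D5:**
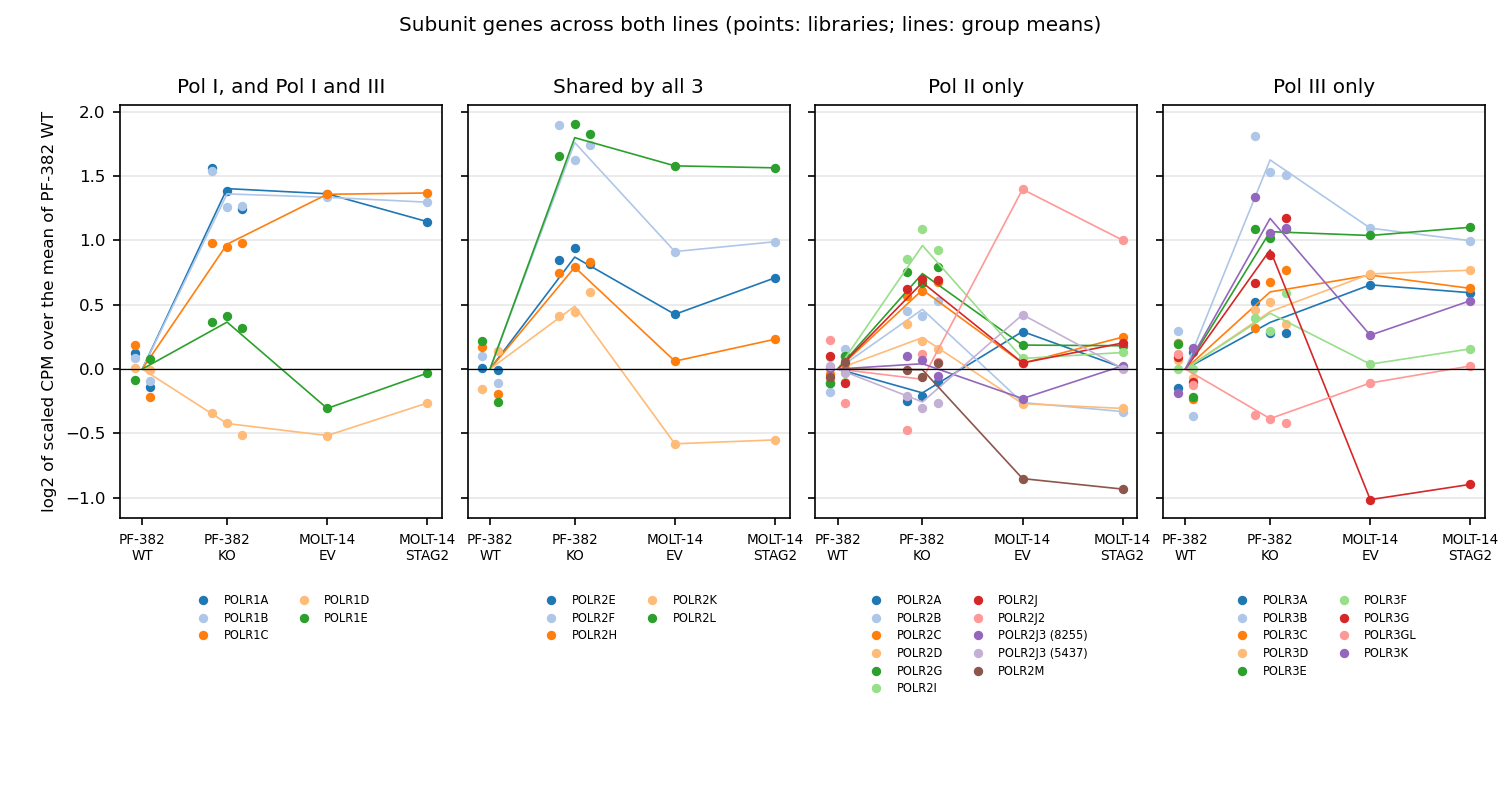
Log2 of scaled CPM relative to the mean of PF-382 wild type, for the members in all 7 libraries (points) with lines through group means, in panels by the polymerase that uses the subunit. POLR1A, POLR1B, POLR1C and POLR2L stand above wild type in the knockout and in both MOLT-14 libraries, whereas POLR3G stands above it in the knockout and below it in MOLT-14.

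Some members share reads or exons with other genes, which limits single values. Fractional counts, more than 0.005 from a whole number in some library, were found for 7 members: POLR2D, POLR2J, POLR2J2, both POLR2J3 identifiers, POLR2M and POLR3GL. In GENCODE 29 exons of 7 members overlap another gene on the same strand and those of 16 overlap one on the opposite strand. Opposite overlaps touch POLR2I (785 bases with AD001527.2, and also TBCB and OVOL3), POLR2L (257, with CD151) and POLR2F (up to 89) among others. The strand setting of the counts is not given in the sources used here, so reads from both strands of such exons cannot be told apart. POLR1A, POLR1B, POLR1D, POLR1E, POLR2A, POLR2G, POLR2H, POLR2K, POLR3A, POLR3C and POLR3E have no such overlap.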

How the data were processed

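The authors deposited expected counts, which are unscaled estimates of the reads per gene, beside TPM and FPKM for 7 libraries. STAR, RSEM and the builds GRCh38 and hg38 are named, without versions, per the submitters' processing notes. The annotation release and strand setting are not given in the sources used here. The authors' TPM values were used for ranks within a library and in 1 alternative, and the deposited FPKM values were not used. The 92 ERCC features were left out.

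Counts were rounded and tested in R 4.3.3 with edgeR 4.0.16 (TMM, filterByExpr, quasi-likelihood test, two-sided, Benjamini-Hochberg over all genes tested, threshold 0.05). All adjusted p-values are of this kind unless limma 3.58.1 (log2 of TPM plus 1) or DESeq2 1.42.0 is named. The knockout fit used the 5 PF-382 libraries (biological coefficient of variation 0.242), and comparisons between lines used a 4-group fit of all 7. MOLT-14 ratios used a prior count of 2 on the TMM scale and a minimum of 5 CPM in either library. A limit of 3 counts is 0.0319 to 0.092 CPM. Alternatives were other scalings, filters, tools, gene sets and contrasts, and leaving out each library. Replicate pairs differed beyond counting noise (chi-square per degree of freedom 36.6 to 124).

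Members, lists and the rule for named genes (catalytic, shared and paralogous subunits, the 4 smallest adjusted p per polymerase, the 3 smallest per list) were chosen with earlier results of these data known. All 31 members matched GENCODE 29, and 21 had a RefSeq promoter. Counts cover all members, and 1 member's own values are not reported here.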

Additional observations from a re-analysis of the deposited data

Results flagged for a closer look

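POLR2F was the only member for which the STAG2 effect was called different between the lines: the knockout effect in PF-382 exceeded the empty-vector effect in MOLT-14 by 1.84 on the log2 scale (edgeR quasi-likelihood test, adjusted p = 0.048). The call was lost in 5 of 8 alternatives: without knockout library 1 (0.169), 2 (0.204) or 3 (0.201), with RLE size factors (0.0521) and with upper-quartile scaling (0.0663). In PF-382 all 3 knockout libraries were above both wild-type ones, and MOLT-14 has 1 library per group.

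POLR2J4 is not protein-coding and lies outside the members, and it appears under 2 identifiers that changed in opposite directions in the PF-382 knockout. The pseudogene identifier ENSG00000272655.2 was at 2.68 and 2.95 CPM in wild type and 5.14, 4.75 and 5.36 in the knockout (log2 change 0.85, edgeR adjusted p = 0.0289). The non-coding RNA identifier ENSG00000214783.9 was at 7.18 and 3.65 CPM in wild type and 2.00, 2.82 and 2.55 in the knockout (-1.14, adjusted p = 0.0466). How reads were shared among POLR2J copies was not tested.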

How the results depend on the processing

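In PF-382 the members called higher numbered 18, and 12 to 21 over all alternatives: 16 with upper-quartile scaling, 17 with RLE size factors, 20 without a low-count filter, 21 by DESeq2, 16 among protein-coding genes, 18 in the 4-group fit, 16 by limma on TPM, and 12 to 20 when a library was left out. The same 12 members kept the call under every alternative. Members called lower numbered 1, and 4 with upper-quartile scaling (POLR1D, POLR2A, POLR3GL and a POLR2J3 identifier), 0 without a filter, 2 among protein-coding genes, 0 by limma on TPM and 0 to 2 when a library was left out. Upper-quartile scaling also moved the share of higher among all called genes from 52.0% to 33.8%, and TPM moved it to 75.2%. The members' median less that of all genes was 0.61, and 0.60 and 0.52 under those 2. Between the lines 13 higher and 4 lower became 9 and 7 with both groups of each line, where POLR1E, POLR2B, POLR2D and POLR2I (-0.37, above 0 before) were newly called lower and POLR1D no longer was, and the lower count ran from 1 to 5 when a library was left out. The 1 called difference of the STAG2 effect became 0 with upper-quartile scaling and 0 with RLE, 6 without a filter, and 0 to 14 when a library was left out. In MOLT-14 scaling by total counts and a smaller fold threshold each gave 1 lower member, the POLR2J3 identifier ENSG00000285437.1. Total counts also moved the members' median log2 ratio from 0.05 to -0.15, as it did that of all genes. Over the alternatives 29 member ratios in MOLT-14 moved by more than their counting error. Each held in 4 of 5 alternatives and moved with scaling by total counts. The cause of these shifts was not tested. Leaving out a library leaves fewer samples, and the part of this in the shifts was not tested either. No paired analysis was possible because replicate numbers are only accession order and the codes in the sample titles have no stated meaning. Depth limits the weakest member most, POLR2J2, at 0.736 and 1.03 CPM in PF-382 wild type.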
